A study of Sus scrofa with 6 samples.

Results

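Troponins and tropomyosins, the calcium-sensitive proteins of the muscle thin filament, were followed in porcine satellite cells (PSCs) between 24 h and 36 h of differentiation. The genes were chosen by symbol, as the isoforms of troponin C (TNNC1, TNNC2), troponin I (TNNI1, TNNI2) and troponin T (TNNT1, TNNT2, TNNT3) and the tropomyosins TPM1, TPM2 and TPM3. Of these 10 genes, 7 were paired with one of the 28266 genes of the expression table, and TNNI2, TNNT3 and TPM3 were not analysed here. All 7 passed the minimum for testing, a mean of at least 1 FPKM over the 6 libraries, as did 14060 genes in all. FPKM counts sequenced fragments per unit of gene length and library depth, and levels of different genes are set side by side on this scale. The lengths implied by the values were 497 bases for TNNC1, 722 for TNNC2 and 844 to 1127 for the others. Whether these lengths cover the whole transcripts was not tested, so levels, sums and shares across genes are approximate.

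The study took satellite cells, resident stem cells of muscle whose progeny fuse into multinucleate myotubes, from the limb muscles of newborn male Yorkshire pigs, and let them differentiate in medium with horse serum. RNA was sequenced from 3 libraries at 24 h and from 3 libraries at 36 h, numbered as replicates 4, 5 and 6 in both groups. The library titles begin with N, the letter with which the study marks cells given negative control (NC) siRNA, so both groups were taken as NC siRNA cells without any knockdown. For the later group the labels of the samples state 48 h, but the title of the series and the study state 36 h, and 36 h is used here. The extraction text of the labels names endometrium, whereas the tissue and cell type labels name skeletal muscle and satellite cells. Nothing in the sources used here says whether the replicates came from separate animals or cultures, so the p-values measure only the spread between these libraries.

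In the thin filament of striated muscle, tropomyosin lies along the actin filament and covers the sites where myosin binds. The troponin complex moves it aside when calcium arrives. Troponin C binds the calcium, troponin I holds the filament in its inhibited state, and troponin T anchors the complex to tropomyosin. Slow skeletal, fast skeletal and heart muscle use different genes for these subunits. Developing skeletal muscle also expresses some forms known from the heart, among them TNNT2.

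All 7 genes rose between 24 h and 36 h, with log2 changes from 0.72 for TPM1 to 2.54 for TNNC2 and a median of 1.89. The median over all genes tested was -0.16. In the limma fit over all genes, 7 of the 7 had an adjusted p under 0.05 in the upward direction, where 16.5% of all genes tested were called higher, 34.4% lower and 50.9% in either direction. In 7 of the 7 every 36 h library lay above every 24 h library, which held for 21% of all genes tested. A log2 change of at least 1 was reached by 5 of the 7, against 3.6% of all genes, and TNNT1 and TPM1 stayed under it. Higher genes made up 32.4% of all calls on the deposited values, 46.2% after quantile normalization and 51.9% after median-ratio scaling, which moved the median change of all genes to -0.036 and -0.003. The 7 genes were called higher under each of these scalings, with log2 changes from 0.54 to 2.66 and from 0.90 to 2.70.

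**Figure D1:**
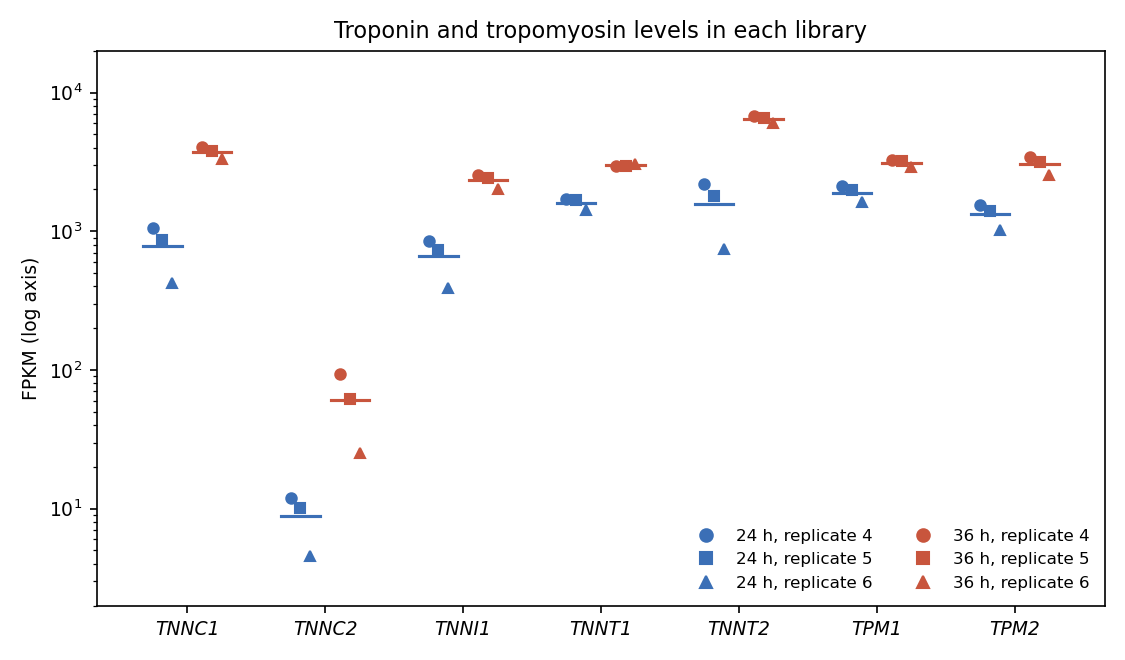
FPKM on a log axis of the 7 troponin and tropomyosin genes in each library, with 24 h in blue and 36 h in red, circles, squares and triangles for replicates 4, 5 and 6 and horizontal lines for the group means. Every 36 h point of a gene lies above every 24 h point of the same gene, and the 24 h triangle is the lowest point of each of the 7 genes.

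Troponin C was carried almost wholly by TNNC1, the form shared by slow skeletal and heart muscle (ENSSSCG00000011441, chr13:34591571-34594320 in Sscrofa11.1). Its level was 1050, 870 and 423 FPKM at 24 h in replicates 4, 5 and 6, and 4020, 3806 and 3311 FPKM at 36 h. The 36 h libraries thus lay close together, while replicate 6 at 24 h was well under its group. The mean rose from 781 ± 323 to 3712 ± 364 FPKM (SD, n = 3 each), which is 4.75-fold. On the log2(FPKM + 1) scale the change was 2.34 with a standard error of 0.32 (limma adjusted p = 0.00208). Ordered by FPKM within a library, TNNC1 moved from between rank 74 and rank 189 at 24 h to rank 9 or 10 at 36 h.

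TNNC2, the fast skeletal troponin C (ENSSSCG00000007424, chr17:48025621-48026762), was by far the lowest of the 7 in FPKM. It was measured at 12, 10.1 and 4.54 FPKM at 24 h and at 93.6, 62.2 and 25.4 FPKM at 36 h. Both groups were spread widely and did not overlap, and replicate 6 was the lowest library at either time. The mean went from 8.91 ± 3.9 to 60.4 ± 34.2 FPKM (SD, n = 3 each), or 6.78-fold. Its log2 change of 2.54 was the largest of the 7 and also the least precise, with a standard error of 0.51 and a 95% interval from 1.32 to 3.76 (limma adjusted p = 0.0072). The values rested on 54 to 147 fragments at 24 h and 330 to 1406 at 36 h, whereas no other gene of the 7 had fewer than 3457 fragments in a library. Its coefficient of variation at 36 h was 56.5%, and that of the other 6 genes lay between 1.78% and 15.4%.

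For troponin I only TNNI1 was analysed, the slow skeletal form (ENSSSCG00000024061, chr10:23788279-23800554). Its values were 856, 728 and 392 FPKM at 24 h and 2558, 2407 and 2016 FPKM at 36 h. The lowest 36 h library exceeded the highest 24 h library 2.35-fold. The mean rose 3.53-fold, from 658 ± 240 to 2327 ± 280 FPKM (SD, n = 3 each), a log2 change of 1.89 ± 0.28 (SE; limma adjusted p = 0.00268). A short distance away on chromosome 10 lies TNNT2, separated from TNNI1 by 28582 bases that hold one gene, LAD1. Slow troponin I and cardiac troponin T are neighbours in the pig genome in this way. The log2 change was 2.17 for TNNT2 and 1.89 for TNNI1. The TNNT2 to TNNI1 ratio was 2.56, 2.45 and 1.91 at 24 h and 2.67, 2.70 and 2.99 at 36 h. It was higher at 36 h in every library, by a log2 difference of 0.28, but it was chosen after the values were seen and was not tested. Over the 6 libraries, the profile of TNNT2 was nearer to that of TNNC1 on chromosome 13 than to that of its neighbour TNNI1, with root mean square log2 distances of 0.12 and 0.20.

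Troponin T was measured for the cardiac and the slow skeletal gene. TNNT2, the cardiac form (ENSSSCG00000023031, chr10:23749528-23759696), stood at 2194, 1783 and 749 FPKM at 24 h and at 6820, 6501 and 6019 FPKM at 36 h. At 36 h it was the third highest gene of the whole table in each of the 3 libraries, after ranks of 21, 28 and 99 at 24 h. The mean rose 4.09-fold from 1575 ± 745 to 6447 ± 403 FPKM (SD, n = 3 each), with a log2 change of 2.17 ± 0.38 (SE; limma adjusted p = 0.00422). TNNT1, the slow skeletal form (ENSSSCG00000025353, chr6:59351445-59365584), stood at 1719, 1678 and 1424 FPKM at 24 h and at 2951, 2943 and 3039 FPKM at 36 h. TNNT1 was the steadiest of the 7 genes within a group, with a coefficient of variation of 9.97% at 24 h and 1.78% at 36 h. Its mean rose 1.85-fold from 1607 ± 160 to 2978 ± 52.9 FPKM (SD, n = 3 each), a log2 change of 0.89 ± 0.10 (SE; limma adjusted p = 0.00123).

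The tropomyosins TPM1 and TPM2 were abundant at both times. TPM1, the alpha-tropomyosin gene of heart and fast muscle (ENSSSCG00000004570, chr1:108986981-109016090), had 2104, 1974 and 1617 FPKM at 24 h and 3246, 3202 and 2898 FPKM at 36 h. Its rise was the smallest of the 7, 1.64-fold from 1898 ± 252 to 3115 ± 190 FPKM (SD, n = 3 each), with a log2 change of 0.72 ± 0.12 (SE; limma adjusted p = 0.00392). TPM2, the beta-tropomyosin gene of skeletal muscle (ENSSSCG00000005316, chr1:236402249-236410390), had 1548, 1410 and 1016 FPKM at 24 h and 3454, 3168 and 2534 FPKM at 36 h. The mean rose 2.30-fold from 1325 ± 276 to 3052 ± 471 FPKM (SD, n = 3 each), a log2 change of 1.21 ± 0.19 (SE; limma adjusted p = 0.00298). Tropomyosin genes also make non-muscle proteins through other promoters and exons, as troponin T genes make several spliced forms, and values per gene do not separate these. How reads shared between such related genes were counted is not given in the sources used here.

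By group mean, the order of FPKM levels at 24 h was TPM1, TNNT1, TNNT2, TPM2, TNNC1, TNNI1 and TNNC2. At 24 h the range of each gene from TPM1 down to TNNI1 overlapped that of the next in this order, and only TNNC2 stood apart. At 36 h the order was TNNT2, TNNC1, TPM1, TPM2, TNNT1, TNNI1 and TNNC2. The 36 h ranges of TPM1, TPM2 and TNNT1 overlapped, whereas the other neighbours in the order did not, with TNNT2 above and TNNC2 below all other genes of the 7 in each library. Together the 7 genes summed to 9484, 8453 and 5624 FPKM at 24 h and to 23143, 22090 and 19841 FPKM at 36 h. That was 1.63%, 1.45% and 0.961% of the FPKM sum of the 24 h libraries and 3.94%, 3.75% and 3.35% of that of the 36 h libraries.

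Isoform ratios within a subunit do not change when a library is multiplied by 1 factor, as in median-ratio scaling, although quantile normalization can change them. With 3 libraries against 3, an exact permutation test cannot give a p below 0.1, so no ratio or sum could pass 0.05. TNNT1 to TNNT2 was 0.784, 0.941 and 1.90 at 24 h and 0.433, 0.453 and 0.505 at 36 h. The groups did not overlap, and the mean log2 ratio went from 0.16 ± 0.67 to -1.11 ± 0.11 (SD, n = 3 each), a difference of -1.28 (two-sided exact permutation p = 0.1, adjusted p = 0.12 over 6 ratios and sums). TNNT2 accordingly made up 56.1%, 51.5% and 34.5% of the summed FPKM of both troponin T genes at 24 h, and 69.8%, 68.8% and 66.5% at 36 h. Replicate 6 at 24 h was the only library with more TNNT1 than TNNT2, and without it the difference was -0.89.

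TPM1 to TPM2 was 1.36, 1.40 and 1.59 at 24 h and 0.94, 1.01 and 1.14 at 36 h, again without overlap. The mean log2 ratio was 0.53 ± 0.12 at 24 h and 0.04 ± 0.14 at 36 h (SD, n = 3 each), a difference of -0.49 (two-sided exact permutation p = 0.1, adjusted p = 0.12). TPM1 thus exceeded TPM2 in every 24 h library, and the pair was near parity at 36 h, with TPM2 at 51.6%, 49.7% and 46.7% of their sum.

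TNNC2 to TNNC1, the fast to slow ratio, was 0.0115, 0.0117 and 0.0108 at 24 h and 0.0233, 0.0164 and 0.00766 at 36 h. The 36 h values fell on both sides of the 24 h values, and the difference in mean log2 ratio was 0.34 (two-sided exact permutation p = 0.6, adjusted p = 0.6). It was 0.79 without 36 h replicate 6 and -0.01 without 36 h replicate 4, so its sign rested on single libraries. TNNC2 made up between 0.76% and 2.28% of the troponin C sum in the 6 libraries.

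**Figure D2:**
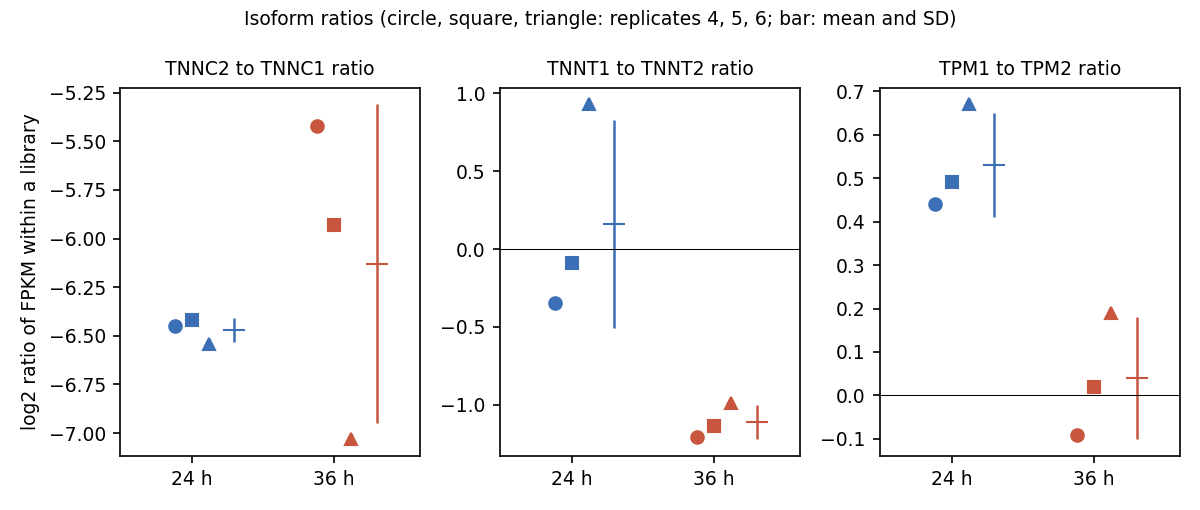
Ratios of 2 isoforms within a library on a log2 axis, at 24 h (blue) and 36 h (red), with circles, squares and triangles for replicates 4, 5 and 6 and the mean with its SD beside them. The TNNT1 to TNNT2 and TPM1 to TPM2 ratios are lower at 36 h without overlap, and the 36 h TNNC2 to TNNC1 ratios scatter above and below the 24 h values.

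By subunit, the troponin C sum was 1062, 880 and 427 FPKM at 24 h and 4114, 3868 and 3336 FPKM at 36 h, a log2 difference of 2.35. The sums hold only the genes analysed, so TNNT3 is missing from troponin T and TPM3 from the tropomyosins. The troponin T sum was 3913, 3461 and 2173 FPKM at 24 h and 9772, 9445 and 9058 FPKM at 36 h, a difference of 1.61. The sum of TPM1 and TPM2 was 3652, 3384 and 2633 FPKM at 24 h and 6700, 6370 and 5432 FPKM at 36 h, a difference of 0.94. Each of these sums was higher at 36 h in every library, with a two-sided exact permutation p of 0.1 (adjusted p = 0.12). Troponin C and troponin T exceeded the pair of tropomyosins in the size of the difference, but differences between subunits were not tested.

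The other thin filament genes did not move in 1 direction. The list of 25 genes (actins, capping proteins, nebulin and its partners, and TPM4) had 18 genes in the table, and 16 of them were tested. Of the 16, 6 were higher, 5 were lower and 5 did not pass the test, with a median log2 change of 0.18. Over all genes tested, 16.5% were called higher and 34.4% lower, so lower calls were about as frequent in this list as over all genes. ACTA1, the skeletal muscle alpha-actin on which adult troponin and tropomyosin sit, rose from 1248 ± 710 to 5572 ± 486 FPKM (SD, n = 3 each; log2 change 2.37, limma adjusted p = 0.00711). Another actin gene, ACTC1, was above ACTA1 at both times, at 8647 ± 1279 and 11685 ± 607 FPKM (SD, n = 3 each). Its log2 change was only 0.44 (limma adjusted p = 0.0408), and 10 of its 16 fits passed the threshold. KLHL40, which stabilises nebulin and leiomodin, rose by 1.23, TMOD4, the skeletal muscle cap of the pointed filament end, by 1.04 from a very low level of 0.472 FPKM, and NEB (nebulin) by 0.86 on the log2 scale (limma adjusted p = 0.00337, 0.0087 and 0.0112). Their order depends on the scale: with 0.1 added to FPKM in place of 1, the change was 1.88 for TMOD4 and 1.24 for KLHL40. TMOD4 met the minimum for testing only through its 36 h mean of 2.11 FPKM, which favoured a rise.

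Among the falling genes of this list was TPM4, a tropomyosin best known from the cytoskeleton of non-muscle cells and not one of the 10 genes. It had 231, 293 and 573 FPKM at 24 h and 97.5, 101 and 115 FPKM at 36 h, with no overlap. Its log2 change of -1.69 ± 0.31 (SE; limma adjusted p = 0.00514) was opposite in sign to that of TPM1 and TPM2. Of the FPKM of TPM1, TPM2 and TPM4 together, TPM4 held 5.95%, 7.96% and 17.9% at 24 h and 1.43%, 1.56% and 2.07% at 36 h, a share chosen after the values were seen and not tested. In such bulk libraries, fewer cells of a type and less RNA per cell cannot be told apart. The other large falls were those of CAPZA1, a subunit of the barbed-end capping protein (log2 change -1.08), cytoplasmic actin ACTB (-0.99) and TMOD3, the widely expressed tropomodulin (-0.95), with limma adjusted p = 0.000692, 0.00795 and 0.00242. LMOD2, a leiomodin that lengthens thin filaments, had a log2 change of 1.09 but did not pass the test (limma adjusted p = 0.0645).

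**Figure D3:**
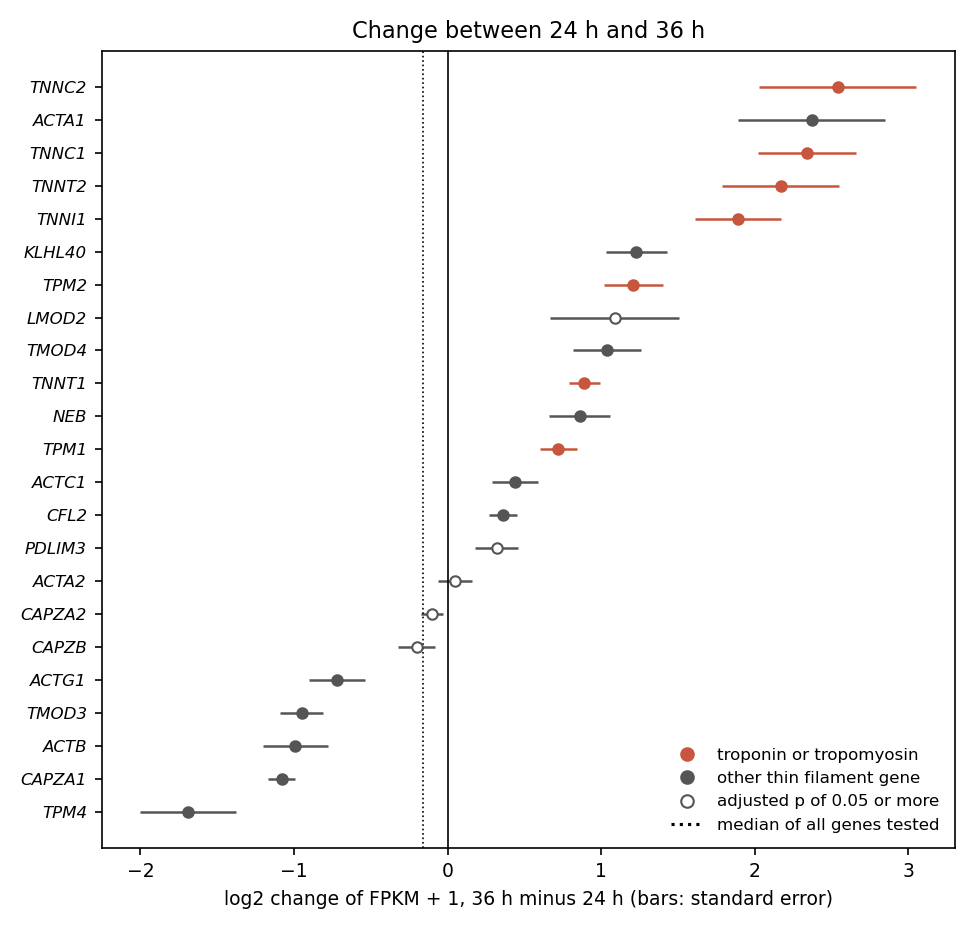
Change in log2(FPKM + 1) from 24 h to 36 h with its standard error for the 7 troponin and tropomyosin genes (red) and the 16 tested genes of the thin filament list (grey), where open points had an adjusted p of 0.05 or more and the dotted line is the median of all genes tested, -0.16. The 7 red points lie between 0.72 and 2.54, while the grey points run from -1.69 for TPM4 to 2.37 for ACTA1.

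Genes that accompany the troponins in slow or fast fibres were compared as lists. Of the 10 slow fibre genes, 4 were in the table, and the 2 that could be tested were higher, with a median log2 change of 1.6. They were SLN, a small inhibitor of the calcium pump (1.71, limma adjusted p = 0.0194), and ACTN2, the alpha-actinin of the Z-disc (1.5, limma adjusted p = 0.0255). MYL3 and MYBPC1 were under the minimum for testing, and MYH7, MYL2, ATP2A2, CASQ2, MYOZ2 and PLN were not analysed here. These 2 genes therefore cannot stand for slow fibre genes as a set. Of the 15 fast fibre and developmental genes, 10 were in the table and 8 were tested, and 8 of the 8 were higher, with a median of 1.77. Over all genes tested, 16.5% were called higher. CASQ1 and MYOZ1 averaged 0.697 and 0.672 FPKM at 24 h and met the minimum only through their 36 h means of 2.09 and 2.95. The minimum thus favoured a rise in these genes. MYH1, MYH2, MYH4, MYOZ3 and ACTN3 were not analysed here, PVALB was at 0 in every library and MYBPC2 was under the minimum for testing. The 8 genes therefore cannot stand for fast fibre genes as a set. Among them, on the log2(FPKM + 1) scale, MYH3, the embryonic myosin heavy chain, changed most (2.61, limma adjusted p = 0.00677). MYL11, the fast regulatory myosin light chain, came next (2.38, limma adjusted p = 0.00267). That scale understates low genes such as MYH8, whose mean went from 1.71 to 8.19 FPKM and whose change was 1.84. Without 36 h replicate 4 or without 36 h replicate 5, fewer genes were called over the whole table (5730 and 4881), and 4 of the 8 fast genes passed. In these fits SLN and ACTN2 missed the threshold (limma adjusted p between 0.0608 and 0.0799), while their log2 changes were 1.66 and 1.68 for SLN and 1.39 and 1.46 for ACTN2. The slow genes TNNC1, TNNI1 and TNNT1 changed by 2.34, 1.89 and 0.89, the fast TNNC2 by 2.54 and the cardiac TNNT2 by 2.17. The slow genes thus ran from 0.89 to 2.34, while the fast and the cardiac kind were measured by 1 gene each. TNNC1 is also the heart form, and differences between these kinds were not tested.

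The cells were checked against markers of muscle and of other cell types. Of the 10 skeletal muscle markers, 7 were in the table, and DES, the muscle intermediate filament gene, was at 1693 ± 211 FPKM at 24 h and 3182 ± 268 FPKM at 36 h (SD, n = 3 each). The summed level of these markers ranged from 2569 to 3269 FPKM at 24 h and from 4938 to 5374 FPKM at 36 h, most of it DES and MYMK. Of them, 4 were higher (CDH15, DES, MYF6 and MYMK) and 0 lower. MYF5 (-0.48), MYOD1 (-0.29) and NCAM1 (0.20) did not pass the test (limma adjusted p = 0.106, 0.133 and 0.0547). Over all genes tested, beside which each marker count is to be read, 16.5% were called higher and 34.4% lower. For heart muscle, 3 of 7 markers were in the table: TBX5 was at 0 in every library, NPPB reached at most 0.0911 FPKM, and MYH6, a cardiac myosin heavy chain, rose from 11.6 ± 6.91 to 91.4 ± 4.21 FPKM (SD, n = 3 each; log2 change 3.08, limma adjusted p = 0.0025). That change exceeded those of all 7 troponin and tropomyosin genes, TNNT2 included. Fibroblast markers (6 of 9 in the table) summed to between 930 and 1001 FPKM at 24 h and between 826 and 1032 FPKM at 36 h, with 2 higher and 3 lower. Most of this sum was COL1A2, whose mean fell from 693 to 450 FPKM, and COL3A1, whose mean rose from 241 to 443 FPKM. DCN and LUM fell from 18.8 and 5.51 to 6.12 and 1.83 FPKM, and POSTN rose from 1.74 to 2.81 FPKM.

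Smooth muscle and pericyte markers (6 of 8 in the table) summed to between 1053 and 1501 FPKM at 24 h and between 1038 and 1174 FPKM at 36 h, with 1 higher and 2 lower. Most of this sum was ACTA2, the smooth muscle actin gene, at 853 to 1091 FPKM over the 6 libraries, followed by TAGLN (transgelin) at 105 to 400 FPKM, while MYH11, the smooth muscle myosin gene, reached at most 0.0254 FPKM. The endothelial gene KDR and the leukocyte gene PTPRC were at 0 in all 6 libraries, while the summed levels of the endothelial and blood markers stayed between 0.687 and 2.44 FPKM. Genes of proliferating cells (4 of 7 in the table) all fell, from a sum of 45.7, 63.0 and 129 FPKM at 24 h to 9.41, 8.68 and 13.0 FPKM at 36 h. Their part in the rise of the troponin and tropomyosin genes was not tested.

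Replicate 6 at 24 h had the lowest value of the group for 7 of the 7 troponin and tropomyosin genes and the highest sum of the proliferation genes, 129 FPKM. Against the mean of replicates 4 and 5 it differed by -1.40 for TNNT2, -1.18 for TNNC1, -1.12 for TNNC2 and -1.01 for TNNI1 on the log2(FPKM + 1) scale, and by -0.54 for TPM2, -0.33 for TPM1 and -0.25 for TNNT1. Over all genes tested the median of this difference was 0.06, and 34.0% of genes were lowest in that library. Without it, the 7 genes were still called higher, with log2 changes of 2.16 for TNNC2, 1.95 for TNNC1, 1.70 for TNNT2, 1.55 for TNNI1, 1.03 for TPM2, 0.81 for TNNT1 and 0.61 for TPM1 and limma adjusted p between 0.000418 and 0.0124.

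At 36 h, replicate 6 was again the lowest library for 6 of the 7, the exception being TNNT1, with differences between -0.38 and 0.04 apart from TNNC2 at -1.55. The median over all genes tested was 0.01, and 36.2% were lowest in that library. The 8 fast fibre genes were lowest there too, with a median difference of -0.51, and PYGM, the muscle glycogen phosphorylase, and MYOZ1, a Z-disc protein of fast fibres, came nearest to TNNC2, at -1.17 and -1.08. These 2 genes were named after their values were seen. The depth of this library, 18015798 fragments, lay below the 20801302 and 21896353 of replicates 4 and 5. The 24 h libraries had 16382890 to 16908165 fragments.

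**Figure D4:**
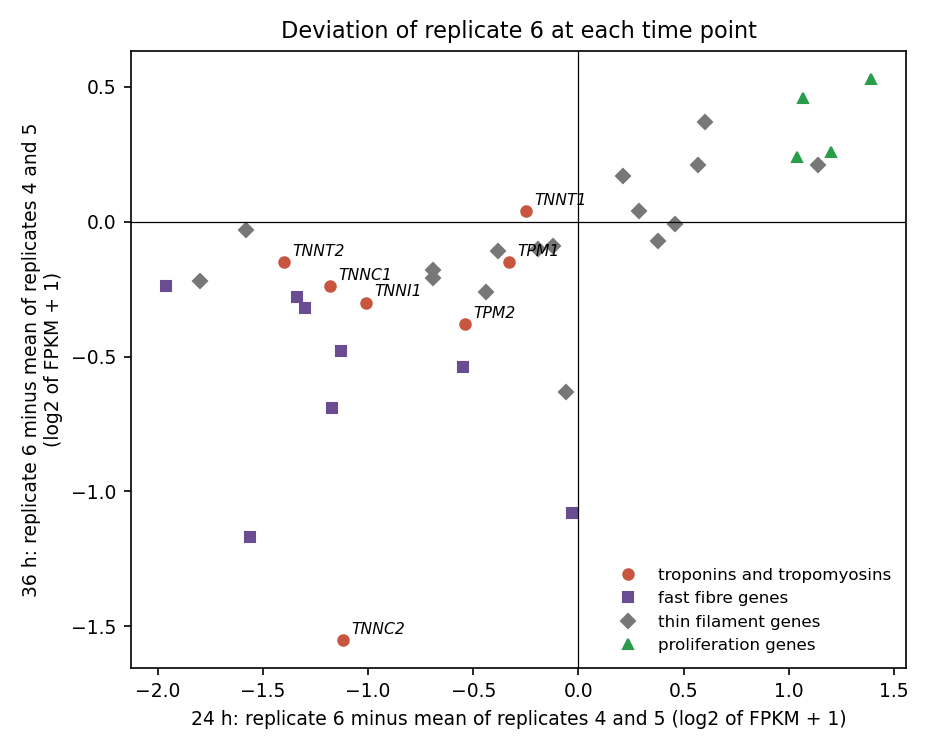
Difference of replicate 6 from the mean of replicates 4 and 5 on the log2(FPKM + 1) scale, at 24 h (horizontal axis) and 36 h (vertical axis), for the 7 troponin and tropomyosin genes (circles, named), the fast fibre genes (squares), the thin filament genes (diamonds) and the proliferation genes (triangles). TNNC2 lies apart from the other 6 named genes on the vertical axis at -1.55, and the proliferation genes lie to the right with positive differences at both times.

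The gene with a symbol whose pattern over the 6 libraries was nearest to each of the 7 was found by the root mean square distance between log2(FPKM + 1) profiles after each gene's own mean was taken off, among 7874 genes. These distances describe 6 libraries of 2 groups, and genes that differ between the groups by the same amount are near for that reason alone. TNNC1 was nearest to MYL11 (0.063), TNNC2 to CAPN3, the muscle calpain (0.222), and TNNI1 to MYH8, the perinatal myosin heavy chain (0.077). TNNT2 was nearest to the ceramide synthase gene CERS1 (0.113), TPM2 to the sodium-calcium exchanger gene SLC8A2 and, at the same distance to 3 decimals, ARMH3 (0.057), TPM1 to ZNRF3 (0.028) and TNNT1 to UBTD1 (0.033). Some of these matches were low genes: MYH8 had 0.509 to 9.34 FPKM, SLC8A2 1.01 to 6.11, ZNRF3 3.27 to 8.07 and CAPN3 1.27 to 26.2. Adding 1 shrinks the differences of such genes, so their nearness depends on this scale. Among the 7 genes, the nearest pairs were TNNT1 with TPM1 (0.11) and TNNC1 with TNNT2 (0.12), and the farthest were TNNC2 with TPM1 (1.07).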

How the data were processed

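The authors mapped paired-end RNA-seq reads to the pig genome and deposited 1 FPKM value per gene and library, with no pooled column. The study names HISAT2 and StringTie, whereas the submitters' processing notes name TopHat2, Cufflinks, HTSeq and Sscrofa11.1. Strandedness was not given in the sources used here. Whole fragments were recovered from the steps of the deposited FPKM values for 19542 of 19543 genes (99.99%, tolerance 0.05). Symbols were paired with 11804 of the 28266 identifiers, and positions are from RefSeq (Sscrofa11.1).

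Genes whose mean over the libraries reached 1 FPKM were fitted as log2(FPKM + 1) with limma 3.58.1, run in R 4.3.3 (eBayes with trend, two-sided, Benjamini-Hochberg, threshold 0.05). The scale understates changes of low genes. The study used a count model. The deposited unit is FPKM, so the main test was on the log scale and the recovered fragments served as an alternative. Of 8 planned isoform ratios, 3 could be computed. They were tested with the subunit sums by exact permutation (scipy 1.17.1). Members and gene lists were chosen with earlier results of these data known. The list symbol MYLPF was matched to its current symbol MYL11 after the values were seen. Besides the members, the text names the 4 called thin filament genes with the largest change on either side, the 2 in each fibre list and the nearest gene of each member. Other list genes are named where they limit a result. Alternatives were other pseudocounts, filters and scalings, eBayes without trend, a replicate block, leaving out each library, voom on recovered fragments and a fold threshold.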

Additional observations from a re-analysis of the deposited data

How the results depend on the processing

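For the 7 troponin and tropomyosin genes, all 15 alternative fits kept the direction and an adjusted p under 0.05 in each gene. The limma adjusted p lay between 0.000418 and 0.0317, the highest being that of TNNC2 without 36 h replicate 5. The number of all genes called, 7156, moved by more than 1.5 times where calls also had to reach 1 on the log2 scale in either direction, which left 1176 genes and 5 of the 7, without TNNT1 and TPM1. It ranged from 4881 to 7268 over the fits that left out 1 library. The other thin filament genes gave 4 to 8 higher and 4 to 6 lower calls, and requiring a mean of 5 FPKM left 5 called fast fibre genes, since fewer were tested. The replicate numbers were not taken as pairs, since the sources used here do not say that they are. Deviations from the group means correlated at 0.146, -0.016 and 0.178 for replicates 4, 5 and 6, which cannot decide this. Replicate 4 was highest for 7 of the 7 genes at 24 h and 6 at 36 h, and replicate 6 lowest for 7 and 6. A fit with the replicate number as a block called 7034 genes and kept the 7, with TNNC2 at limma adjusted p = 0.0015 in place of 0.0072. limma voom on recovered fragments called 7240 genes, 6926 of them shared. Depth limited TNNC2 most, with 54 fragments in 24 h replicate 6.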

Other observations

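The TNNT2 to TNNC1 ratio, chosen after the values were seen and not tested, was 2.09, 2.05 and 1.77 at 24 h and 1.70, 1.71 and 1.82 at 36 h, so these cardiac and slow troponin genes stayed between 1.70 and 2.09 in ratio while their means rose 4.09-fold and 4.75-fold. TPM4 to TPM1, chosen in the same way, was 0.11, 0.148 and 0.354 at 24 h and 0.03, 0.0315 and 0.0396 at 36 h. Without 24 h replicate 6 its log2 difference was -1.93 in place of -2.42.

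TNNT1 lies 1243 bases from TNNI3, the cardiac troponin I gene, on chromosome 6 with no gene between them, and TNNI3 was not analysed here.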
